A study of Homo sapiens with 21 samples.

Results

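This account describes 10 genes whose products are studied as therapy targets on Ewing sarcoma cells: STEAP1, STEAP2, CD99, LIPI, IL1RAP, B4GALNT1, ST8SIA1, CD276, ADGRG2 and ROR1. They were chosen by symbol, and all 10 have a row among the 57820 gene identifiers of the deposited table, of which 18040 were tested because at least 3 libraries had a linear value of 10 or more. Of the members, 9 passed that filter, and CD99 did not because it is listed at 0 in all 21 libraries. Values are the authors' normalized log2 values. A difference is between group means on that scale, and it is called where limma's Benjamini-Hochberg adjusted p over all 18040 genes is below 0.05.

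RNA sequencing was done on A673, an established Ewing sarcoma cell line that carries the EWS/FLI fusion. Cells were first selected for 4 days for an RNAi construct and then given a pMSCV-hygro vector. The delta 22 libraries (n = 4, batches 1 to 4), the mut9 libraries (n = 3, batches 3 to 5) and the wild-type libraries (n = 5, batches 1 to 5) carry EF-2-RNAi, which lowers EWS/FLI, together with the delta 22 mutant, the mut9 mutant or full-length type IV EWS/FLI. The knockdown libraries (n = 5, batches 1 to 5) carry EF-2-RNAi with the empty vector, and the control libraries (n = 4, batches 1, 2, 3 and 5) carry RNAi against luciferase with the empty vector. All rescue groups therefore contain the RNAi as well as the construct. Everything comes from 1 cell line, the labels do not describe what delta 22 and mut9 change, and no label says that replicates are separate infections, so p-values measure the spread between these libraries, which may be technical.

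EWS/FLI joins the amino-terminal part of EWS to the DNA-binding part of FLI, an ETS factor that reads GGAA motifs, and in Ewing cells it is known both to switch on genes near GGAA repeats and to hold others down. Surface proteins of these cells interest clinicians because antibodies and engineered T cells can reach them. The 10 genes fall into membrane proteins of a metal-reducing family (STEAP1 and STEAP2), a cytokine co-receptor (IL1RAP), a phospholipase (LIPI), a G protein-coupled receptor (ADGRG2), enzymes that build the ganglioside antigens GD3 and GD2 (ST8SIA1 and B4GALNT1), a B7 family protein (CD276), a receptor tyrosine kinase-like protein (ROR1) and CD99, the surface glycoprotein used to diagnose the tumour.

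The promoter windows of the 4 members that were lower after knockdown are shown because the study's title concerns GGAA binding. They run from 250 bases before to 50 bases after a RefSeq start on GRCh38.p14, 5′ to 3′ on the gene's strand, with each GGAA or TTCC in capitals.
STEAP1, chr7:90154219-90154518, plus strand: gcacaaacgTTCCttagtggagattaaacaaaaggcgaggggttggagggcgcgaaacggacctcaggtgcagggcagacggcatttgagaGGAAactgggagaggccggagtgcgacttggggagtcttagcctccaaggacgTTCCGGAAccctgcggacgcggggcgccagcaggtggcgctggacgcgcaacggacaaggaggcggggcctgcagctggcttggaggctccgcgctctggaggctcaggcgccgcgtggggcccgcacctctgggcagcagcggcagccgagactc
STEAP2, chr7:90211490-90211789, plus strand: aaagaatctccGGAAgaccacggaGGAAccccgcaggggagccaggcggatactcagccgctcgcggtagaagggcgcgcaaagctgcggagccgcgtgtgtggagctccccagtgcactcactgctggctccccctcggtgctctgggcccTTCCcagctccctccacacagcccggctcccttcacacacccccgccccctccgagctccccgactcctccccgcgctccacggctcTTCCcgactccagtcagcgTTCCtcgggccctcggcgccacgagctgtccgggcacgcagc
LIPI, chr21:14206900-14207199, minus strand: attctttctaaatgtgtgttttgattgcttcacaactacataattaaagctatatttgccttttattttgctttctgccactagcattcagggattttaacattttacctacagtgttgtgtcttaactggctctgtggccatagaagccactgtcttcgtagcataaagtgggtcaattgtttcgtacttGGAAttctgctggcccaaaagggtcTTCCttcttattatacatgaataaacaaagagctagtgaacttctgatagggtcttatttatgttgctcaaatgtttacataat
IL1RAP, chr3:190513835-190514134, plus strand: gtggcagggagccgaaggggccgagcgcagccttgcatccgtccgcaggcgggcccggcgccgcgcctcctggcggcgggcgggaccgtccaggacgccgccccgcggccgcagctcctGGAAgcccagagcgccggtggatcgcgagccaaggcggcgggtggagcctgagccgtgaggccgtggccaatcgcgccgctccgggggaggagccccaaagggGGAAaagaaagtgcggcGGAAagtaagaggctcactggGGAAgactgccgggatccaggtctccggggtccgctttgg
Counted on both strands, GGAA stands 4 times in the STEAP1 window, 5 times in that of STEAP2, 2 times in that of LIPI and 4 times in that of IL1RAP. At least 1 GGAA is found in 95.5% of 34961 windows of 300 bases outside chromosome Y, and the median is 3. LIPI and STEAP2 each have a second window in the table, which is not printed and holds 4 GGAA for LIPI and 5 for STEAP2. The doubled motif GGAAGGAA, searched on both strands and containing GGAA itself, occurs in 3.67% of all windows and in none of the windows of the 9 members that have one (B4GALNT1 is named only). More distant sequence was not searched.

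The targeted gene was checked through FLI1, whose reads cannot be divided between the fusion, the construct and an intact FLI1 transcript. FLI1 averaged 11.27 ± 0.23 in delta 22, 10.23 ± 0.15 in mut9, 10.47 ± 0.13 in wild-type, 9.77 ± 0.16 in knockdown and 11.64 ± 0.06 in control libraries (SD). It was lower in knockdown than in control libraries (log2 -1.87 ± 0.10, adjusted p = 4.70e-12), as was EWSR1 (log2 -0.46 ± 0.07, adjusted p = 5.17e-06). Between 16708 and 17326 genes per library reached 10 on the linear scale, and read totals are not kept by these values. NKX2-2 and NR0B1, transcription factor genes used as markers of Ewing cells, had at least 6.77 and 7.82 in every library, but differed between groups. NKX2-2 averaged 7.43 in delta 22, 9.89 in mut9, 9.54 in wild-type, 7.23 in knockdown and 9.66 in control libraries. For NR0B1 the means were 8.38, 12.06, 11.41, 9.45 and 11.58 in the same order. Of the markers of other cells, CD3E (T cell), KRT5 and CDH1 (epithelial) had negative log2 values in every library, EPCAM reached 3.15, the leukocyte gene PTPRC 4.30 and the endothelial gene CDH5 4.98. CD14, a monocyte gene, differed between the groups, with means of 6.22 in delta 22, 6.64 in mut9, 4.52 in wild-type, 6.01 in knockdown and 4.03 in control libraries, and no overlap between knockdown (5.32 to 6.53) and control libraries (3.45 to 4.29). Its part in the results was not tested. PECAM1, a further endothelial marker, was sought by symbol, but no row matched that name, so it has no values here.

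After knockdown, the antigen genes did not move as a block. LIPI, STEAP2, IL1RAP and STEAP1 fell, CD276, B4GALNT1 and ROR1 rose, and ADGRG2 and ST8SIA1 were not called. That makes 3 of 9 tested members higher and 4 of 9 lower, against 35.5% and 34.0% of all tested genes called in those directions and 69.5% called in either, so the share called is not far from that of all genes. A limma fit with a term for batch (the replicate block) called ADGRG2 lower too (log2 -0.48, adjusted p = 0.00997), but not ST8SIA1 (log2 -0.44, adjusted p = 0.0861). Both genes were lower in 4 of 4 shared batches. In 7 members the groups did not overlap, beside 59.4% of all genes. What sets the members apart from each other is direction and size, with log2 differences from -4.64 (LIPI) to 1.27 (CD276). The median difference of the 9 was -0.46, and that of all tested genes was -0.01.

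**Figure D1:**
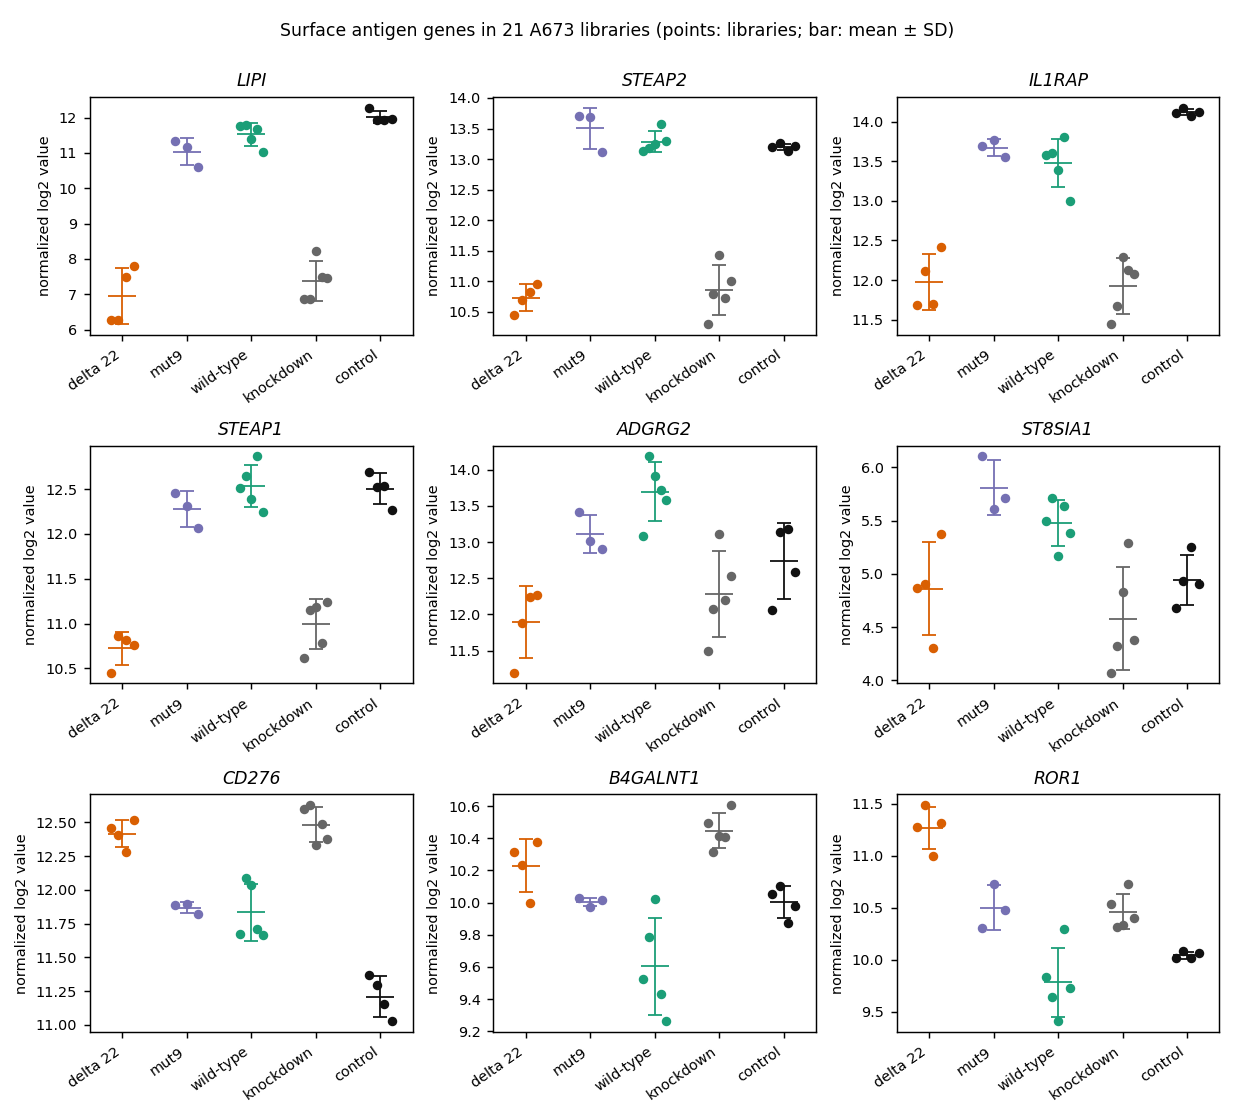
Normalized log2 value (y axis, scaled per gene) of 9 antigen genes in delta 22, mut9, wild-type, knockdown and control libraries, with points for libraries and bars for mean ± SD. LIPI, STEAP2, IL1RAP and STEAP1 are low in delta 22 and knockdown libraries and high in the other groups, CD276 is lowest in control libraries, and ROR1 is highest in delta 22 libraries.

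LIPI encodes a phosphatidic acid-selective phospholipase that is otherwise largely a testis gene. It had 6.28, 6.28, 7.48 and 7.79 in delta 22 libraries of batches 1 to 4, and 11.34, 11.16 and 10.60 in mut9 libraries of batches 3 to 5. Wild-type libraries of batches 1 to 5 had 11.76, 11.78, 11.38, 11.68 and 11.03, knockdown libraries 6.87, 6.85, 8.23, 7.50 and 7.47, and control libraries of batches 1, 2, 3 and 5 had 12.28, 11.94, 11.92 and 11.95. Every delta 22 and knockdown library lay more than 2 log2 units below every library of the other groups. LIPI was 24.9-fold lower in knockdown than in control libraries (log2 -4.64 ± 0.31, adjusted p = 8.99e-11). It rose 17.7-fold in wild-type over knockdown libraries (log2 4.14 ± 0.29, adjusted p = 4.39e-10) and 12.6-fold in mut9 over knockdown libraries (log2 3.65 ± 0.33, adjusted p = 4.71e-08). An antisense transcript annotated across LIPI, AP001347.1, averaged 6.28 in knockdown and 6.78 in control libraries. The sources used here do not say whether counting used the strand or how reads over both genes were assigned. The part of antisense reads in the low LIPI level after knockdown was not tested.

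STEAP1 and STEAP2, which encode membrane proteins of a metal-reducing family, are neighbours on chromosome 7, and both were low in the delta 22 and knockdown groups. STEAP2 had 10.45, 10.70, 10.83 and 10.96 in delta 22 libraries and 13.70, 13.69 and 13.11 in mut9 libraries. It had 13.12, 13.17, 13.25, 13.57 and 13.29 in wild-type libraries, 10.30, 10.80, 11.43, 10.73 and 11.003 in knockdown libraries, and 13.19, 13.26, 13.13 and 13.21 in control libraries. The mut9, wild-type and control values overlap, and all of them are above every knockdown and delta 22 value. STEAP2 fell 5.08-fold after knockdown (log2 -2.34 ± 0.17, adjusted p = 2.94e-10). It was higher in wild-type than in knockdown libraries (log2 2.43 ± 0.16, adjusted p = 1.97e-10) and in mut9 than in knockdown libraries (log2 2.65 ± 0.18, adjusted p = 1.67e-09).

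STEAP1 had 10.45, 10.86, 10.81 and 10.76 in delta 22 libraries and 12.45, 12.32 and 12.06 in mut9 libraries. Wild-type libraries had 12.51, 12.65, 12.39, 12.87 and 12.25, knockdown libraries 10.61, 11.15, 11.18, 10.78 and 11.24, and control libraries 12.69, 12.52, 12.54 and 12.27. The separation was again complete, but smaller than for its neighbour, with a 2.86-fold fall after knockdown (log2 -1.51 ± 0.14, adjusted p = 1.09e-08). It rose 2.91-fold with the wild-type construct (log2 1.54 ± 0.13, adjusted p = 7.09e-09) and 2.44-fold with mut9 (log2 1.29 ± 0.15, adjusted p = 1.25e-06). STEAP2-AS1, an antisense transcript annotated across both genes, was at 3.59 in knockdown and 5.61 in control libraries (log2 -2.02, adjusted p = 5.03e-11), far below either gene. CFAP69, the next protein-coding gene beyond STEAP2, differed in the other direction (log2 0.40, adjusted p = 0.0253). Of the rest of the family, STEAP3, an endosomal iron reductase gene, rose after knockdown (log2 1.61 ± 0.17, adjusted p = 8.83e-08), STEAP1B had log2 -0.11 ± 0.09 (adjusted p = 0.276; -0.27 and 0.00606 with quantile scaling), and STEAP4 was below the filter. STEAP1 and STEAP1B are close in sequence, and reads shared between them were not measured.

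IL1RAP encodes the accessory chain shared by receptors of the interleukin-1 family. It had 11.68, 12.12, 11.70 and 12.41 in delta 22 libraries and 13.69, 13.77 and 13.56 in mut9 libraries. Its values were 13.58, 13.61, 13.39, 13.81 and 13.003 in wild-type libraries, 11.45, 11.67, 12.29, 12.13 and 12.07 in knockdown libraries, and 14.11, 14.18, 14.08 and 14.13 in control libraries. Control libraries formed a narrow band above all others, and knockdown and delta 22 libraries overlapped at the bottom. The gene fell 4.599-fold after knockdown (log2 -2.20 ± 0.17, adjusted p = 1.11e-09). It rose in wild-type over knockdown libraries (log2 1.55 ± 0.16, adjusted p = 1.08e-07), yet was still lower in wild-type than in control libraries (log2 -0.65 ± 0.17, adjusted p = 0.00579).

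Genes listed for the interleukin-1 receptor family, not all of which work with IL1RAP, moved mostly the other way. Of 20 listed receptors, ligands and adaptors, 17 were tested, and 15 rose and 1 fell after knockdown, beside 35.5% and 34.0% of all tested genes, with a median difference of 1.31. IL1R1, the receptor chain that pairs with IL1RAP, averaged 10.03 in knockdown and 4.47 in control libraries (log2 5.56 ± 0.33, adjusted p = 2.22e-11). IRAK2, a signalling kinase gene (log2 5.61 ± 0.43, adjusted p = 6.76e-10), IL1RL1, the interleukin-33 receptor gene (log2 5.02 ± 0.59, adjusted p = 2.96e-07), and TRAF6, an adaptor gene (log2 0.45 ± 0.07, adjusted p = 5.79e-06), rose too. IL1RAPL2 was the member that fell (log2 -1.40), a gene of low values, at 4.19 or less in every library. In wild-type over knockdown libraries 0 members of the list rose and 14 fell, beside 29.6% and 32.3% of all tested genes. The accessory chain and its partner thus changed in opposite directions in the same libraries.

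CD276, also called B7-H3, is a surface protein of the B7 family of T cell regulators. It had 12.46, 12.41, 12.28 and 12.52 in delta 22 libraries and 11.89, 11.90 and 11.82 in mut9 libraries. It had 11.67, 12.09, 12.03, 11.71 and 11.66 in wild-type libraries, 12.60, 12.63, 12.33, 12.48 and 12.38 in knockdown libraries, and 11.37, 11.30, 11.15 and 11.03 in control libraries. Control libraries were lowest, mut9 and wild-type libraries lay in the middle, and delta 22 and knockdown libraries overlapped at the top. CD276 rose 2.42-fold after knockdown (log2 1.27 ± 0.10, adjusted p = 5.44e-10). It fell in wild-type relative to knockdown libraries (log2 -0.65 ± 0.09, adjusted p = 3.65e-06) and in mut9 relative to knockdown libraries (log2 -0.61 ± 0.10, adjusted p = 6.95e-05). It remained higher in wild-type than in control libraries (log2 0.62 ± 0.10, adjusted p = 4.64e-05). Other B7 genes rose more steeply after knockdown: 4 of 5 tested were called higher and 0 lower, beside 35.5% and 34.0% of all tested genes. These were PDCD1LG2 (log2 5.20 ± 0.28, adjusted p = 7.11e-12) and CD274 (log2 4.89 ± 0.37, adjusted p = 5.65e-10), the PD-1 ligand genes, ICOSLG (log2 4.36 ± 0.47, adjusted p = 9.92e-08), the ICOS ligand gene, and VSIR (log2 2.75 ± 0.31, adjusted p = 1.95e-07). NCR3LG1 was not called (log2 -0.15), and CD80, CD86, VTCN1 and HHLA2 were below the filter.

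**Figure D2:**
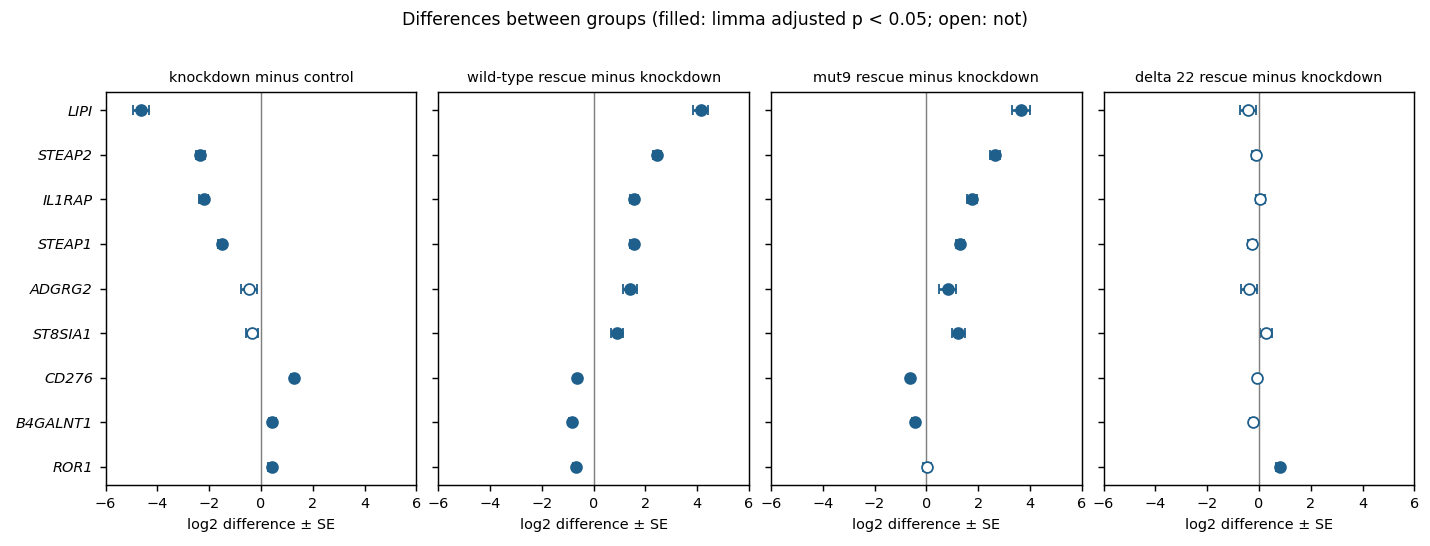
Log2 difference ± SE (x axis) of each antigen gene for knockdown minus control, wild-type minus knockdown, mut9 minus knockdown and delta 22 minus knockdown, with filled points where limma's adjusted p is below 0.05. In the delta 22 panel ROR1 is the filled point, at 0.81, and the other 8 genes are open, from -0.43 to 0.28.

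B4GALNT1 and ST8SIA1 encode sequential ganglioside enzymes: ST8SIA1 makes GD3, and B4GALNT1 converts it to GD2. B4GALNT1 had 10.32, 10.23, 9.996 and 10.38 in delta 22 libraries and 10.03, 9.97 and 10.01 in mut9 libraries. It had 9.52, 9.79, 10.02, 9.43 and 9.26 in wild-type libraries, 10.49, 10.31, 10.42, 10.41 and 10.61 in knockdown libraries, and 10.06, 10.10, 9.88 and 9.98 in control libraries. Knockdown libraries were above control libraries without overlap, and 4 of the 5 wild-type libraries were below all control libraries. B4GALNT1 rose by a small step after knockdown (log2 0.44 ± 0.12, adjusted p = 0.00224) and fell in wild-type relative to knockdown libraries (log2 -0.84 ± 0.11, adjusted p = 1.94e-06). Wild-type libraries ended lower than control libraries (log2 -0.40 ± 0.12, adjusted p = 0.0112).

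ST8SIA1 was the member with the lowest values. It had 4.87, 4.90, 4.30 and 5.37 in delta 22 libraries, 6.10, 5.61 and 5.71 in mut9 libraries, 5.496, 5.71, 5.16, 5.64 and 5.38 in wild-type libraries, 4.07, 4.32, 4.83, 5.29 and 4.38 in knockdown libraries, and 4.68, 4.93, 5.25 and 4.90 in control libraries. Mut9 libraries lay above all knockdown and control libraries, and the other groups overlapped. Knockdown minus control was log2 -0.36 ± 0.23 and was not called (adjusted p = 0.168), although it was called without knockdown replicate 4 (log2 -0.54, adjusted p = 0.0305) and with quantile scaling (log2 -0.68, adjusted p = 0.0150). Knockdown replicate 4 has no control library in its batch, and within batches 1, 2, 3 and 5 the difference was -0.60, -0.61, -0.42 and -0.53. With the replicate block it was log2 -0.44 (adjusted p = 0.0861). ST8SIA1 rose in wild-type (log2 0.90 ± 0.22, adjusted p = 0.00128) and mut9 libraries (log2 1.23 ± 0.25, adjusted p = 0.000447) over knockdown libraries. CMAS, a much higher gene on the opposite strand that overlaps ST8SIA1, had 10.51 in knockdown and 10.73 in control libraries. If counting ignored the strand, reads in the overlap may have been added or dropped. Their part in the ST8SIA1 values was not tested.

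Ganglioside enzymes and lysosomal partners around this pair were called higher after knockdown in 10 cases and lower in 1 of 15 tested, beside 35.5% and 34.0% of all tested genes, with a median difference of 0.38. UGCG, which makes the glucosylceramide from which gangliosides are built, rose (log2 2.07 ± 0.17, adjusted p = 1.84e-09), as did the sialyltransferase gene ST3GAL1 (log2 2.26 ± 0.15, adjusted p = 1.02e-10). HEXA, a hexosaminidase gene whose product helps break GM2 down, rose too (log2 0.86 ± 0.10, adjusted p = 2.02e-07). The member that fell was B4GALT6 (log2 -0.90), a lactosylceramide synthase gene.

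ADGRG2, also known as GPR64, encodes an adhesion G protein-coupled receptor. It had 11.20, 11.88, 12.24 and 12.27 in delta 22 libraries and 13.41, 13.02 and 12.90 in mut9 libraries. It had 13.08, 14.18, 13.92, 13.72 and 13.58 in wild-type libraries, 11.50, 12.08, 13.11, 12.20 and 12.54 in knockdown libraries, and 12.06, 13.13, 13.17 and 12.59 in control libraries. The knockdown and control ranges overlap widely, and the batch 1 library is the lowest in each of the 4 groups that have one. Knockdown minus control was log2 -0.46 ± 0.30 (adjusted p = 0.180). With the replicate block, which compares libraries within batches, the value was log2 -0.48 and was called (adjusted p = 0.00997). It was also called without knockdown replicate 3 (log2 -0.66, adjusted p = 0.0462) and with array weights (log2 -0.66, adjusted p = 0.0199). Within batches 1, 2, 3 and 5 the difference was -0.56, -1.05, -0.07 and -0.06.

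**Figure D3:**
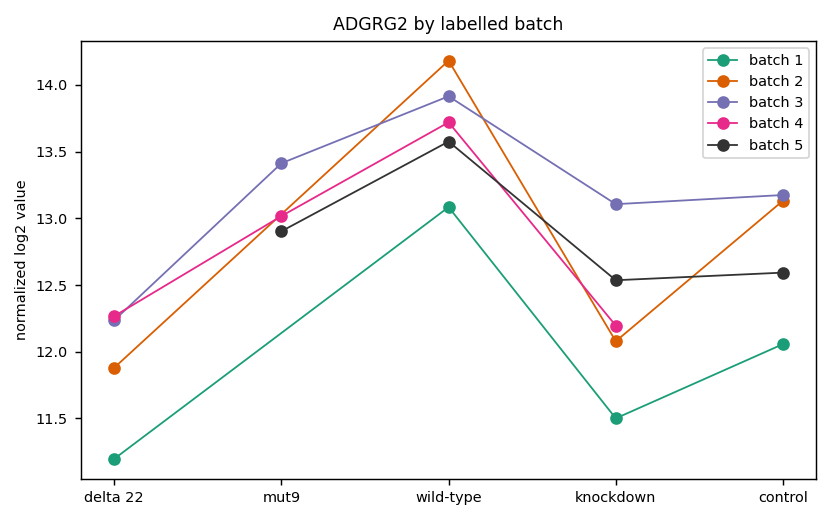
Normalized log2 value of ADGRG2 (y axis) in delta 22, mut9, wild-type, knockdown and control libraries, with lines that join libraries of 1 labelled batch. Batch 1 is lowest in every group that has it, at 11.20, 13.08, 11.50 and 12.06, and the wild-type library is the highest of each batch.

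ADGRG2 rose in wild-type over knockdown libraries (log2 1.41 ± 0.28, adjusted p = 0.000216), in 5 of 5 batches. It was also higher in wild-type than in control libraries (log2 0.96 ± 0.30, adjusted p = 0.0152), a call that ended without control replicate 1 (log2 0.73, adjusted p = 0.0709). The replicate block kept the call (log2 0.93, adjusted p = 0.000163), and ADGRG2 was higher in 4 of 4 shared batches, by 0.74 to 1.05. For mut9 against knockdown it passed narrowly (log2 0.83 ± 0.32, adjusted p = 0.0406), and leaving out knockdown replicate 1, 2 or 4 or any mut9 library ended that call (adjusted p = 0.0539 to 0.157). It also ended with no filter (adjusted p = 0.0625) and in batches 3 to 5 only (log2 0.50, adjusted p = 0.0923), while with the replicate block the adjusted p was 0.00452 (log2 0.65). Of 15 other adhesion receptor genes tested, 5 were called higher and 7 lower after knockdown, with a median of -0.55, beside 35.5% higher and 34.0% lower among all tested genes. ADGRG1 rose (log2 5.72 ± 0.24, adjusted p = 1.85e-13), while the brain receptor genes ADGRB3 (log2 -3.81 ± 0.18, adjusted p = 9.29e-13) and ADGRL1 (log2 -2.59 ± 0.25, adjusted p = 1.82e-08) fell, as did ADGRA1 (log2 -3.13 ± 0.36, adjusted p = 2.27e-07).

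ROR1 encodes a receptor for WNT5A that is common in embryos and scarce in adult tissue. It had 11.28, 11.49, 10.998 and 11.32 in delta 22 libraries and 10.30, 10.73 and 10.48 in mut9 libraries. It had 9.84, 9.65, 9.41, 10.30 and 9.72 in wild-type libraries, 10.54, 10.31, 10.34, 10.73 and 10.40 in knockdown libraries, and 10.01, 10.08, 10.02 and 10.06 in control libraries. Every delta 22 library was above every library of the other groups, the mut9 and knockdown ranges overlapped, and 4 of 5 wild-type libraries were below all control libraries. ROR1 rose after knockdown (log2 0.42 ± 0.14, adjusted p = 0.0112), a small change that missed the threshold with quantile scaling (log2 0.27, adjusted p = 0.0834). It fell in wild-type relative to knockdown libraries (log2 -0.68 ± 0.13, adjusted p = 0.000154). Wild-type minus control was log2 -0.26 ± 0.14 (adjusted p = 0.143), and was called with the replicate block (log2 -0.33, adjusted p = 0.0123) and without wild-type replicate 4 (log2 -0.39, adjusted p = 0.0133). ROR1-AS1, an antisense transcript across the gene, averaged 6.10 in delta 22, 5.99 in knockdown and 3.65 in control libraries, below ROR1 in each.

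Of 20 genes listed for ROR and Wnt5a signalling, 13 were called higher and 6 lower after knockdown, beside 35.5% and 34.0% of all tested genes, with a median of 0.47. The ligand gene WNT5B (log2 5.64 ± 0.18, adjusted p = 9.36e-15), the planar polarity gene PRICKLE2 (log2 5.25 ± 0.29, adjusted p = 7.93e-12) and the Frizzled receptor genes FZD7 (log2 1.53 ± 0.11, adjusted p = 3.36e-10) and FZD6 (log2 1.40 ± 0.17, adjusted p = 3.05e-07) rose. Genes were named here by smallest adjusted p, and none of the 6 called lower is among them.

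CD99, the best known surface marker of the tumour, could not be assessed. It is listed at 0 in every library, and so is its second row for the copy on chromosome Y. The gene lies in the pseudoautosomal region that X and Y share. All 47 genes with such a pair of rows are listed at 0 in both, 18 of them protein-coding, among them SLC25A6, a mitochondrial carrier gene that cells use widely, whereas 4.49% of protein-coding rows as a whole are at 0 in every library. The zero is therefore not read as absent expression. XG, the neighbouring blood group gene that is related to CD99, did have values, at 5.64 in knockdown and 9.60 in control libraries (log2 -3.97 ± 0.34, adjusted p = 3.75e-09), and rose in wild-type over knockdown libraries (log2 3.27 ± 0.32, adjusted p = 4.17e-08). CD99L2, the other relative, rose after knockdown (log2 0.58 ± 0.11, adjusted p = 0.000126). The receptor genes PILRA (log2 0.15 ± 0.23, adjusted p = 0.572) and PILRB (log2 0.04 ± 0.11, adjusted p = 0.791) were not called, but with quantile scaling PILRB was called lower (log2 -0.34, adjusted p = 0.00881).

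Putting back wild-type EWS/FLI asks which antigen genes respond to the intact fusion. All 9 tested members were called, 6 higher and 3 lower in wild-type than in knockdown libraries, against 61.8% of all genes called in either direction, 29.6% higher and 32.3% lower. In 7 members the ranges were apart, beside 42.5% of all genes. The 6 that rose were LIPI, STEAP2, IL1RAP, STEAP1, ADGRG2 and ST8SIA1, and the 3 that fell were CD276, B4GALNT1 and ROR1. The knockdown libraries enter both this comparison and the one with control, so the opposite signs of these comparisons are not separate evidence. Within each of the 5 shared batches, every member had the sign of its pooled difference. In wild-type against control libraries, 2 members were called higher (CD276 and ADGRG2) and 2 lower (IL1RAP and B4GALNT1), beside 39.6% of all genes called, 21.3% higher and 18.3% lower. The groups did not overlap for 3 members (LIPI, IL1RAP and CD276), beside 31.2% of all genes. When only the groups compared were fitted, LIPI (log2 -0.49, adjusted p = 0.0277) and ST8SIA1 (log2 0.54, adjusted p = 0.0295) were called too.

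**Figure D4:**
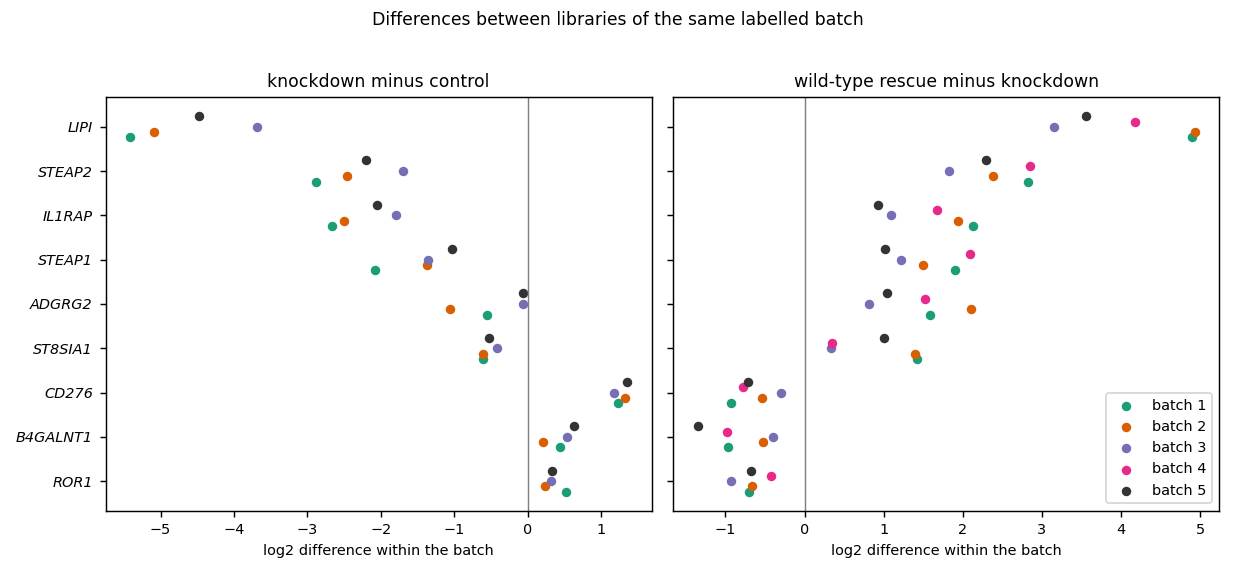
Log2 difference between libraries of the same labelled batch (x axis) for each antigen gene, knockdown minus control in 4 batches and wild-type minus knockdown in 5 batches. Every gene keeps 1 sign in all batches of a panel, LIPI spans -5.41 to -3.69 on the left and 3.15 to 4.93 on the right, and ADGRG2 comes close to 0 in batches 3 and 5 on the left.

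How far a rescue went back can be given as a percentage of the knockdown difference, with 0 for the knockdown mean and 100 for the control mean on the log2 scale, with no test (SD over the rescue libraries). Wild-type libraries regained 101.8% ± 15.6 for STEAP1, 103.8% ± 7.48 for STEAP2, 89.4% ± 6.91 for LIPI, 70.6% ± 13.8 for IL1RAP and 51.0% ± 16.5 for CD276 (n = 5). Mut9 libraries regained 84.9% ± 13.1, 113.0% ± 14.5, 78.8% ± 8.32, 79.6% ± 4.76 and 48.2% ± 3.10 for the same genes in that order (n = 3). On group means, CD276 thus lay between knockdown and control with both constructs, while STEAP1 and STEAP2 returned to about the control level with the wild-type construct. These means run over all batches of a group, so libraries are not paired. The SD leaves out the spread of knockdown and control libraries. Within batches, CD276 wild-type minus knockdown ran from -0.93 to -0.30 and mut9 minus knockdown from -0.59 to -0.44. Its knockdown minus control ran from 1.18 to 1.35. For B4GALNT1 (189.3% ± 67.8) and ROR1 (162.3% ± 78.3) wild-type libraries went past the control mean, but their knockdown differences are small and these percentages vary accordingly.

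Most antigen genes differed between mut9 and knockdown libraries. Against knockdown libraries 6 members were called higher and 2 lower, beside 48.6% of all genes called, 23.0% higher and 25.5% lower. For 7 members these groups did not overlap, beside 46.9% of all genes. IL1RAP rose (log2 1.75 ± 0.19, adjusted p = 3.84e-07), and B4GALNT1 fell (log2 -0.44 ± 0.13, adjusted p = 0.00729). ROR1 was the member not called (log2 0.04 ± 0.15, adjusted p = 0.861). Set directly against wild-type libraries, mut9 libraries differed in 2 members, both higher, beside 18.8% of all genes called, 11.2% called higher and 7.61% lower. Groups without overlap were seen for 1 member, beside 23.8% of all genes. ROR1 was higher with mut9 (log2 0.72 ± 0.15, adjusted p = 0.00298), in 3 of 3 shared batches and with no overlap between the groups, though in batches 3 to 5 alone it just missed (log2 0.69, adjusted p = 0.0519). B4GALNT1 was also called higher (log2 0.40 ± 0.13, adjusted p = 0.0344), but the ranges overlap and leaving out any mut9 library, or wild-type replicate 1, 4 or 5, ended the call (adjusted p = 0.0672 to 0.112). The call also ended with no filter (adjusted p = 0.0758), quantile scaling (0.0870), the compared groups only (0.125) and batches 3 to 5 only (0.126). ADGRG2 was log2 -0.58 ± 0.32 (adjusted p = 0.226), and with the replicate block it was called lower with mut9 (log2 -0.76, adjusted p = 0.00494). FLI1 was log2 -0.24 ± 0.11 in the same comparison (adjusted p = 0.124).

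In delta 22 libraries 1 antigen gene was called against knockdown. Against knockdown libraries ROR1 rose 1.75-fold (log2 0.81 ± 0.14, adjusted p = 0.00282), higher in 4 of 4 shared batches by 0.59 to 1.17, beside 4.5% of all genes called and 2.24% called higher. It was also the 1 member without overlap, beside 8.36% of all genes. The other 8 tested members were not called, with LIPI at log2 -0.43 ± 0.31 (adjusted p = 0.485), STEAP1 at -0.27 ± 0.14 (adjusted p = 0.304), STEAP2 at -0.12 ± 0.17 (adjusted p = 0.756) and IL1RAP at 0.05 ± 0.17 (adjusted p = 0.905). ADGRG2 had -0.39 ± 0.30 (adjusted p = 0.522) and B4GALNT1 -0.22 ± 0.12 (adjusted p = 0.326). CD276 had -0.07 ± 0.10 (adjusted p = 0.754) and ST8SIA1 0.28 ± 0.23 (adjusted p = 0.552). STEAP1 and B4GALNT1 were each lower in 4 of 4 shared batches. For B4GALNT1, whose knockdown difference is small, delta 22 libraries regained 48.8% ± 37.4. FLI1 was higher in delta 22 than in wild-type libraries (log2 0.80 ± 0.10, adjusted p = 9.63e-07). Set against wild-type libraries, all 9 members were called in delta 22 libraries, 3 higher and 6 lower, beside 61.2% of all genes called, 31.7% higher and 29.5% lower. For 7 members the groups did not overlap, beside 47.3% of all genes. LIPI was 23.8-fold lower (log2 -4.57 ± 0.31, adjusted p = 2.91e-10) and STEAP2 5.86-fold lower (log2 -2.55 ± 0.17, adjusted p = 2.43e-10), and ROR1 was 2.80-fold higher (log2 1.49 ± 0.14, adjusted p = 2.26e-08). The call of ST8SIA1 (log2 -0.62 ± 0.23, adjusted p = 0.0256) ended without delta 22 replicate 3 (log2 -0.43, adjusted p = 0.120) or without wild-type replicate 2 or 4 (adjusted p = 0.0570 and 0.0524).

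The order of groups differed from gene to gene. From high to low, LIPI ran control, wild-type, mut9, knockdown, delta 22, where only the step from mut9 to knockdown was called. For STEAP1 and STEAP2 the wild-type, control and mut9 groups overlapped at the top. IL1RAP placed control above mut9 and wild-type, CD276 reversed this with knockdown and delta 22 at the top and control at the bottom, and B4GALNT1 and ROR1 had wild-type at the bottom. In residual spread around the group means, LIPI (SD 0.50) stood at percentile 93.2 and ADGRG2 (SD 0.49) at percentile 92.6 of the tested genes. CD276 had the smallest spread of the members (SD 0.15, percentile 32.6, median of all tested genes 0.21). Among knockdown libraries, replicate 3 had the highest FLI1 (9.99, against 9.59 to 9.84 in the others) and the highest LIPI, STEAP2, IL1RAP and ADGRG2. STEAP1 was instead highest in replicate 5 (11.24, against 11.18 in replicate 3). Replicate 4, with the lowest FLI1 (9.59), had the highest ST8SIA1 (5.29, against 4.83 in replicate 3). The part of the FLI1 level in these values was not tested.

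**Figure D5:**
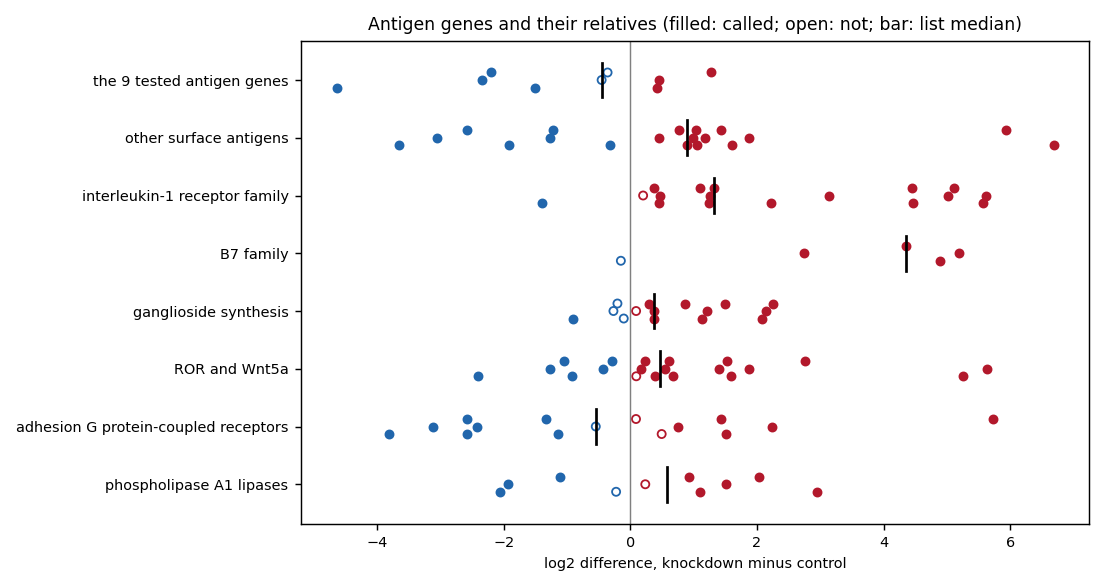
Log2 difference, knockdown minus control (x axis), of the 9 tested antigen genes and of 7 lists of related genes, with 1 point per gene (red above 0, blue below), filled where called, and a bar at the list's median. The interleukin-1 receptor and B7 lists lie mostly above 0, with medians of 1.31 and 4.36, while the antigen genes have a median of -0.46.

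Other surface proteins discussed as targets in Ewing sarcoma were listed as well. Of 19 tested, 12 rose and 7 fell after knockdown, beside 35.5% and 34.0% of all tested genes, with a median of 0.89. EGFR, a growth factor receptor gene, rose most (log2 6.68 ± 0.33, adjusted p = 1.56e-12), followed by the adhesion gene L1CAM (log2 5.94 ± 0.34, adjusted p = 1.55e-11) and, among those named by rule, the ephrin receptor gene EPHA2 (log2 1.43 ± 0.09, adjusted p = 2.39e-11). KCNN1, a potassium channel gene, fell (log2 -3.06 ± 0.25, adjusted p = 1.51e-09). Named after their values were seen, the others that fell were LINGO1, PROM1, SLCO5A1, GPC2, ENPP1 and CDH11. Among phospholipase relatives of LIPI and the lysophosphatidic acid receptors, 5 of 10 rose and 3 fell, beside 35.5% and 34.0% of all tested genes. LIPH, a close relative of LIPI, fell (log2 -2.07 ± 0.30, adjusted p = 4.42e-06), the receptor gene LPAR4 fell (log2 -1.93 ± 0.22, adjusted p = 1.63e-07), and the endothelial lipase gene LIPG (log2 2.94 ± 0.36, adjusted p = 4.55e-07) and PLA1A (log2 2.03 ± 0.37, adjusted p = 6.00e-05) rose.

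Genes with the most similar profile over the 21 log2 values were found by Pearson correlation, as a description of libraries that share groups and batches. RBM11, an RNA-binding protein gene and the nearest tested protein-coding neighbour of LIPI on chromosome 21, was the most similar gene to LIPI (r = 0.99), and it fell after knockdown (log2 -3.13, adjusted p = 1.72e-10). STEAP2 was most like TRMT9B and PRKCB (both r = 0.99), STEAP1 like POU3F1 and UGT3A2 (both r = 0.98), and IL1RAP like DCLRE1A and PRUNE1 (both r = 0.99). CD276 was most like NALCN and SPATS2L (both r = 0.97), ADGRG2 like PKIB (r = 0.94), ROR1 like UACA (r = 0.94), B4GALNT1 like IFT57 (r = 0.92) and ST8SIA1 like TSPAN11 (r = 0.91). GMNC, the nearest tested protein-coding gene beyond IL1RAP on chromosome 3, also fell after knockdown (log2 -3.08, adjusted p = 6.44e-09) and was higher in wild-type than in knockdown libraries (log2 4.32, adjusted p = 7.25e-11).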

How the data were processed

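The authors deposited 1 table of normalized log2 values for 21 libraries. How the log2 values were made from normalized counts is not given in the sources used here. Per the submitters' processing notes, bcl2fastq, STAR 2.5.2b, HTSeq, DESeq2 and hg19 were used, and per the labels' protocols 2.5 ug of RNA from flash-frozen cell pellets went into ScriptSeq libraries. Read totals are unknown, and strand use in counting is not given in the sources used here. Identifiers were joined to symbols with current gene names and GENCODE 29 (52338 matched, 5482 not). No column was left unused.

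No pseudocount was added. Genes with at least 3 libraries at 10 or more on the linear scale were fitted in R 4.3.3 with limma 3.58.1 (trend), 1 mean per group over all 21 libraries, 2-sided, over 7 comparisons. The fit was tried on simulated data with independent residuals, no batch deviations and few changed genes. It therefore does not show how the fit behaves with shared batches or with many changed genes. The highest correlation between libraries was 0.9978, with 0 identical values. Replicate numbers are the labelled batch, so they pair libraries: over 34 pairs of libraries sharing a number the deviations correlated at 0.20 on average (24 above 0.1), against -0.05 for others. The members and the 9 related lists, drawn from general knowledge, were chosen with earlier results of these data known. All members are named, up to 4 genes per list with the smallest adjusted p over the first pair of comparisons (all where 4 or fewer were tested), and the genes most similar by correlation with a mean of at least 100. Some genes that these rules would name are not reported here. Neighbouring and overlapping genes, and genes that moved against their list, were named after values were seen. Alternatives were no filter, a mean of at least 100, rescaling by trimmed means (30% from each end), quantile scaling, a replicate block, only the groups compared, array weights, batches 3 to 5 only for mut9, and leaving out each library. Promoter sequences are from RefSeq on GRCh38.p14, whose coordinates were not mixed with hg19.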

Additional observations from a re-analysis of the deposited data

Results flagged for a closer look

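LIPI in control replicate 1 stood at log2 12.28, apart from the other control libraries at 11.92 to 11.95. The gap to the nearest library was 0.931 of the group's range. It was the 1 flag among 36 groups of 4 or 5 libraries examined over the 9 tested antigen genes, and chance flags about 1 in 20 such groups.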

How the results depend on the processing

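Of 40 calls on antigen genes, 34 held under each alternative run, and the 6 that did not are given with their values in the report. A replicate block added 3 calls (ADGRG2 after knockdown and for mut9 against wild type, ROR1 for wild type against control) and changed no other call on these genes. The deposited log2 values keep no read totals, so depth could not be weighed. The causes of the shifts below were not tested.

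Genes called for delta 22 against knockdown numbered 811, and 1292 with a replicate block, 262 with the compared groups only and 383 to 857 without single libraries (383, 502 and 484 without delta 22 replicates 1, 2 and 4, 495 without knockdown replicate 5). For mut9 against wild type they numbered 3390, and 5234 with array weights, 1745 in batches 3 to 5 only and 1723 to 3572 without single libraries (1723 and 1903 without mut9 replicates 3 and 4). Members called in that comparison went to 1 of the 2 with no filter, quantile scaling or the compared groups only, to 0 in batches 3 to 5 only, and to between 1 and 2 without single libraries. With quantile scaling the median over all tested genes was -0.20 for knockdown minus control and 0.12 for wild type minus knockdown, and calls that were higher went to 38.0% (main 51.1%) and 59.5% (main 47.8%). That share was 41.9% (main 51.9%) for delta 22 against wild type, 43.9% (main 59.5%) for mut9 against wild type and 42.7% (main 53.7%) for wild type against control.

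The percentage regained by mut9 for B4GALNT1 (main 99.5) was 139.4 with quantile scaling and 92.7 to 110.0 without single libraries, and by delta 22 for ROR1 (main -191.9) -288.7 with quantile scaling and -246.7 to -167.6 without single libraries. It crossed 0 without single libraries for STEAP2 (main -5.09, -11.6 to 1.01) and IL1RAP (main 2.50, -4.08 to 6.99) with delta 22 and for ROR1 with mut9 (main -8.98, -32.8 to 17.9).

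Reversals of sign concerned uncalled values near 0. Without single libraries STEAP1 for wild type against control ran from -0.055 to 0.0987, STEAP2 and IL1RAP for delta 22 against knockdown from -0.256 to 0.025 and from -0.0897 to 0.154, CD276 for mut9 against wild type from -0.0071 to 0.0999, and ROR1 for mut9 against knockdown from -0.0751 to 0.138. PILRA ran from -0.0792 to 0.249 after knockdown and from -0.0262 to 0.175 with wild type, and PILRB from -0.0076 to 0.0663 after knockdown and from -0.102 to 0.0243 with wild type. With quantile scaling STEAP1B (0.0476), TRAF6 (0.0254) and PILRB (0.167) for wild type minus knockdown, and PILRA (-0.0545) and PILRB (-0.341, adjusted p = 0.00881) for knockdown minus control, changed sign. PILRB was -0.0198 with array weights for knockdown and 0.0013 with trimmed means for wild type.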
